A study of Mus musculus with 7 samples.

Results

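The sirtuins are 7 genes, Sirt1 to Sirt7, and were taken from the deposited table by their symbols. All 7 were found among 23930 genes, each measured by a single amplicon. Cells carrying the Pax7-GFP reporter were sorted from the hind leg muscles of mice, and the table holds 3 libraries from normocapnia (NC1, NC2, NC3) and 4 from hypercapnia (HC1, HC2, HC3, HC4), and values are listed in that order throughout. The question was which transcripts of the sorted cells, labelled as Pax7+ stem cells, differ after life in elevated CO2.

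Every mouse was a Pax7-GFP reporter of the inducible kind, received tamoxifen at 12 weeks of age, spent 4 weeks in normocapnia or hypercapnia and was sampled at 16 weeks. In this model Cre recombinase sits at the Pax7 locus and GFP is driven by a CAG promoter, so cells stay green after Pax7 is switched off. According to the study's methods both groups also had cardiotoxin injury of the leg muscles days before sorting, which the sample labels do not mention. The name of the deposited table carries a figure in hours that does not match that interval and is not explained, so the time at which the cells were taken is not settled here. The labels give the strain as C57BL/6 for NC1 with a number that rises by 1 for each following sample, while the growth protocol speaks of C57/B6 littermates. Nothing in the labels says how many animals stand behind a library, so p-values measure the spread between these libraries, which may in part be technical.

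Sirtuins are enzymes that use NAD as a cosubstrate to take acetyl and other acyl groups off lysines of proteins, and their activity thereby depends on the metabolic state of the cell. SIRT1, SIRT6 and SIRT7 act mainly in the nucleus, SIRT2 in the cytosol and SIRT3, SIRT4 and SIRT5 in mitochondria. In muscle stem cells SIRT1 is best known for linking NAD levels to histone acetylation when quiescent cells activate, and it also deacetylates several proteins of the autophagy machinery.

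Values are RPM, in which every library's reads are put on the same total, and 1 read was worth between 0.0428 and 0.0688 RPM. Libraries held 14527445 to 23388710 reads. Pax7 ran from 4.34 RPM in NC3 to 268 RPM in NC1, and the summed RPM of 11 satellite cell markers was 538 to 4395 in normocapnia and 856 to 1699 in hypercapnia. The 11 macrophage markers summed to 12273 to 35012 RPM in normocapnia and 20102 to 25007 RPM in hypercapnia, with Lyz2 alone at 8354 to 29108 RPM over all libraries, so RNA of markers outside the label Pax7+ stem cells was read in every library. Marker sums are set against the same list in other libraries, not against another list, since amplicons differ in yield. In such mixed material fewer cells of a type and less RNA per cell cannot be told apart. Neutrophil markers summed to 82.1 to 328 RPM, endothelial markers to 45.3 to 467 RPM, fibro-adipogenic markers to 935 to 2230 RPM, myofiber markers to 229 to 4334 RPM, and lymphocyte markers to at most 3.05 RPM. Of the red blood cell list only 1 gene was in the table, at 0.201 to 15.4 RPM. No marker was at 0 in all libraries. Xist, the transcript of the inactive X chromosome, was at 445 to 701 RPM in NC1, NC2, HC1 and HC2 and at 0 to 0.125 RPM in the other 3, which belong to both groups. By a chi-square of their reads over genes, HC1 with HC2 and HC3 with HC4 were far closer (22.5 and 26.0 over degrees of freedom) than all other pairs of libraries (98.5 to 475.5), though not alike within counting noise. The tests take the 4 hypercapnia libraries as independent, which the labels do not settle.

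Of the sirtuins, Sirt1 fell in hypercapnia, from 13.9 ± 2.34 RPM (SD, n = 3) to 7.34 ± 0.94 RPM (SD, n = 4), and none of the 7 rose past both thresholds. Genes were called where limma on log2(RPM + 1) gave an unadjusted p under 0.05 together with a fold change above 1.5. By this rule 1 of 7 sirtuins was called, and it was lower, whereas across all genes 1.14% were called lower and 2.57% in either direction. With 7 members, a count of 1 is too small to be read against these shares. Across all genes 1.43% were called higher. With Benjamini-Hochberg adjustment across the table, 0 sirtuins passed in limma, where 2 had an unadjusted p under 0.05 (4.66% of all genes), and 0 passed in edgeR and DESeq2 on whole reads, where 1 had an unadjusted p under 0.05 (6.06% of genes tested in edgeR with a filter, 4.38% without, 6.48% in DESeq2). The adjusted counts over all genes were 0 in limma, 0 in edgeR and 29 in DESeq2 (0.139%). Sirt1 was the 1 sirtuin called by both thresholds in edgeR with a filter (6.03% of genes tested, 2.21% higher and 3.82% lower), in edgeR without one (4.38%, 1.7% and 2.68%) and in DESeq2 (6.25%, 2.49% and 3.76%).

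**Figure D1:**
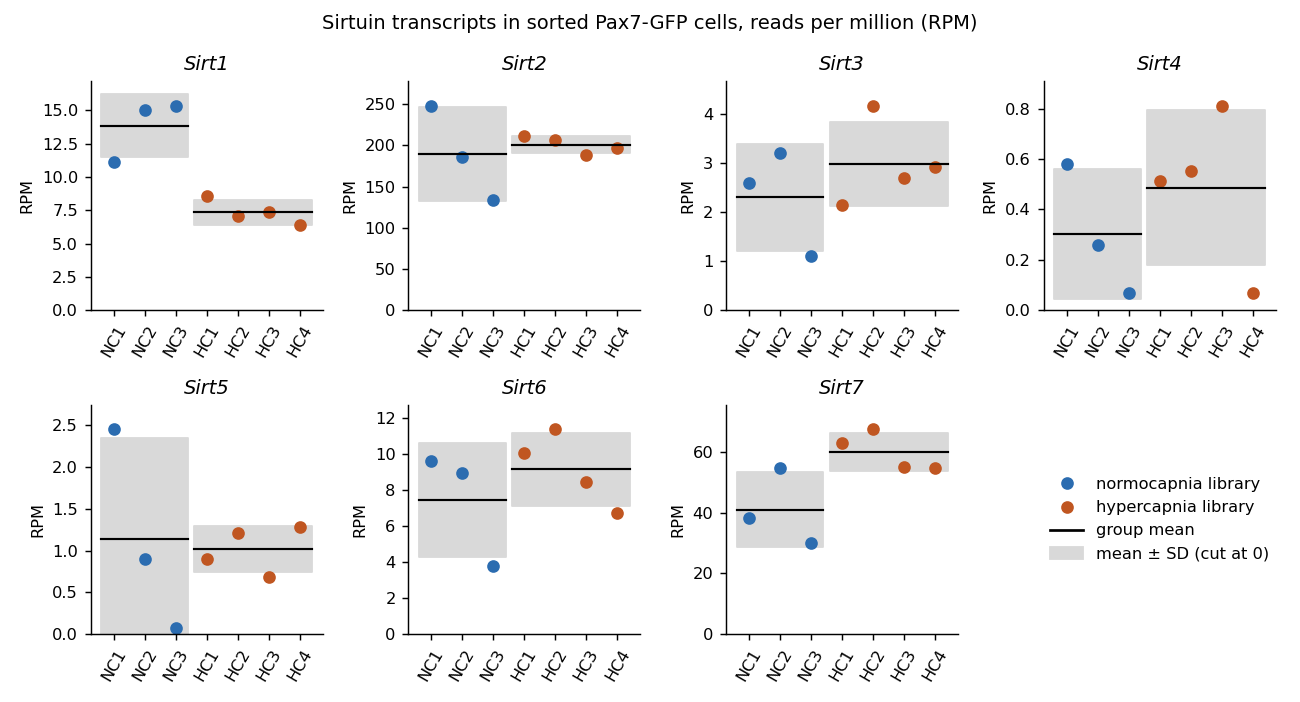
RPM of each sirtuin in each of the 7 libraries (blue, normocapnia; orange, hypercapnia), with the group mean as a line and mean ± SD as a grey band. All 4 hypercapnia libraries lie below all 3 normocapnia libraries for Sirt1, and NC3 is the lowest library for Sirt2, Sirt3, Sirt5, Sirt6 and Sirt7.

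Sirt1 encodes the nuclear deacetylase that acts on histones, p53, FOXO factors and PGC-1α. It stood at 11.2, 15.1 and 15.4 RPM in normocapnia, against 8.60, 7.04, 7.37 and 6.36 RPM in hypercapnia. The groups did not overlap, and normocapnia had 1.89 times the mean RPM of hypercapnia. These values rest on 223 to 352 reads per normocapnia library and on 94 to 201 reads per hypercapnia library. The nearest libraries of opposite groups were NC1 and HC1, whose 95% exact Poisson intervals, which cover counting error only, were 9.81 to 12.6 RPM and 7.45 to 9.88 RPM and thus overlapped slightly. On the log2 scale the difference was -0.83 (SE 0.14, 95% interval -1.18 to -0.47, limma p = 0.00155, adjusted p = 0.65; exact permutation p = 0.0286). With a filter at a mean of 1 RPM the same -0.83 had an SE of 0.26 and a 95% interval of -1.43 to -0.22. The precision of the main fit thus depends on which genes are kept. Over the alternatives the adjusted p in limma, edgeR or DESeq2 ran from 0.106 to 0.961. The exact permutation test, two-sided and run for each of the 7 genes, used the 35 divisions of the libraries, and 0.0286 is the smallest p that 3 against 4 libraries allow.

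Because Sirt1 carries the main difference, the stretch before its start is shown, from RefSeq (GRCm38.p6, chr10:63339051-63339285, minus strand, 235 bases). It is printed 5′ to 3′ and leaves out all bases that GENCODE M21 places in an exon, and it lies in an intron of a longer Sirt1 transcript of that annotation. Capitals mark CACGTG, the palindromic E-box that basic helix-loop-helix factors can bind, which reads the same on both strands.
Sirt1 upstream: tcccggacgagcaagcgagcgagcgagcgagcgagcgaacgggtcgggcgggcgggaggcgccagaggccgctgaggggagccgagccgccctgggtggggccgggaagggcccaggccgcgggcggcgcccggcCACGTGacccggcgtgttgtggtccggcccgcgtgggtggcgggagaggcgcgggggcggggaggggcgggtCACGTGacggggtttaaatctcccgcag
CACGTG occurs 2 times here, at 38 to 43 and at 110 to 115 bases before the RefSeq start. Of 32851 promoter windows of this length, 5.49% hold the motif at least once and 0.374% at least 2 times. None of the windows of the other 6 sirtuins holds it. The Sirt1 stretch has a GC content of 78.3%, against a median of 51.9% over all windows, and 1.95% of windows reach as high a content. How often windows of like GC content hold the motif was not counted. Matches are a description of letters, and binding was not measured.

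Within normocapnia, Sirt1 was lowest in NC1, which had the highest satellite cell sum (4395 RPM) and the lowest macrophage sum (12273 RPM), and highest in NC3, which had the lowest satellite cell sum (538 RPM) and the highest macrophage sum (35012 RPM). NC2 lay between them in both sums (1014 and 23335 RPM). Its Sirt1 counting interval of 13.5 to 16.7 RPM overlapped that of NC3, 13.4 to 17.5 RPM. The sums of the 4 hypercapnia libraries lay inside the normocapnia range for both lists, while their Sirt1 values lay below it. A sum is set by its most abundant genes, here Lyz2, and single markers did not all follow it. Adgre1, which encodes the macrophage surface protein F4/80, was at 109, 149 and 70.5 RPM in normocapnia, against 392, 429, 151 and 184 RPM in hypercapnia, with the groups apart. Of the 11 macrophage markers 8 had a log2 difference above 0 and limma called 1, and of the 11 satellite cell markers 9 did and limma called 0. Limma called 2.57% of all genes and 4.75% of those averaging at least 1 RPM, and the latter had a median log2 difference of 0.16. Counts this small cannot be read against these shares. The part of cell makeup in the result was not tested. Without NC1 and NC3 together, the Sirt1 difference was -0.95 on the log2 scale and still called, a fit that takes the lone normocapnia library to vary like the others. Among the 4 libraries with Xist the log2 difference was -0.67, and among the 3 without it was -1.06, neither of which was tested alone. With the Xist class as a covariate over all 7 libraries, limma gave -0.82 and the call was kept.

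Sirt7, whose product is enriched in the nucleolus and promotes transcription of ribosomal RNA genes, had a difference of the opposite sign. It stood at 38.2, 54.6 and 30.2 RPM in normocapnia, against 62.9, 67.5, 55.2 and 54.6 RPM in hypercapnia. The groups were apart by less than 0.1 RPM, since NC2 and HC4 were level at 54.6 RPM to 3 digits, with counting intervals of 51.6 to 57.7 and 50.9 to 58.5 RPM. Means were 41.0 ± 12.5 RPM (SD, n = 3) and 60.1 ± 6.23 RPM (SD, n = 4), a log2 difference of 0.58 (SE 0.21, 95% interval 0.05 to 1.10, limma p = 0.0368, adjusted p = 0.915; exact permutation p = 0.0286). In the main fit its modeled fold of 1.49 lay just under the threshold, so it was not called. With a filter at a mean of 1 RPM the difference kept its size, but its interval of -0.10 to 1.25 included 0. Without NC1 and NC3 together the log2 difference was 0.13, without NC3 it was 0.38, and without NC2 it was 0.80 and called. Sirt1 and Sirt7 were the 2 sirtuins of 7 whose groups did not overlap, whereas 4.83% of all genes, and 7.72% of those averaging at least 1 RPM, had groups apart.

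Sirt6 encodes a chromatin-bound deacetylase with roles in DNA repair and glucose metabolism. Its levels were 9.59, 8.94 and 3.79 RPM in normocapnia, against 10.0, 11.4, 8.43 and 6.70 RPM in hypercapnia. The groups overlapped, NC3 alone stood low in normocapnia, and the log2 difference of 0.33 (95% interval -0.52 to 1.17) included 0. Without NC3 it was -0.04.

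Sirt2, the mainly cytosolic member that deacetylates tubulin, had the highest read numbers of the 7 amplicons, with 1947 to 5567 reads per library. It was at 248, 186 and 134 RPM in normocapnia, against 212, 206, 188 and 197 RPM in hypercapnia. All 4 hypercapnia libraries fell between NC2 and NC1, and the log2 difference was 0.13 (95% interval -0.39 to 0.65, exact permutation p = 0.629). This interval reaches past a 1.5-fold rise but not to a 1.5-fold fall. Levels of different genes are not compared here, since an amplicon's yield depends on how well it is copied.

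Of the mitochondrial members, Sirt3, the main deacetylase of mitochondrial proteins, was at 2.59, 3.21 and 1.10 RPM in normocapnia, against 2.14, 4.17, 2.69 and 2.91 RPM in hypercapnia. The values overlapped, with a log2 difference of 0.31 (95% interval -0.43 to 1.04, exact permutation p = 0.429). Sirt5, which removes succinyl, malonyl and glutaryl groups, was at 2.45, 0.898 and 0.069 RPM in normocapnia, against 0.899, 1.21, 0.687 and 1.29 RPM in hypercapnia. NC3 held 1 read of Sirt5 and NC1 held 55, so that normocapnia spanned the whole hypercapnia range, and the log2 difference was 0.07 (95% interval -0.95 to 1.08).
Sirt4, a mitochondrial sirtuin with weak deacetylase activity that restrains glutamate dehydrogenase, had few reads. It had 13, 6 and 1 reads under normocapnia, against 12, 11, 13 and 1 reads under hypercapnia, where 3 reads are taken as the floor. Its mean was under 1 RPM, in contrast to the other 6 sirtuins, and the log2 difference of 0.18 (95% interval -0.37 to 0.74) is compressed by the pseudocount of 1 RPM. For Sirt4 it was 0.53 with a pseudocount of 0.1 RPM (95% interval -1.36 to 2.42), 0.73 in edgeR with a filter, 0.74 without and 0.72 (SE 1.08) in DESeq2, and these fits called no difference.

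**Figure D2:**
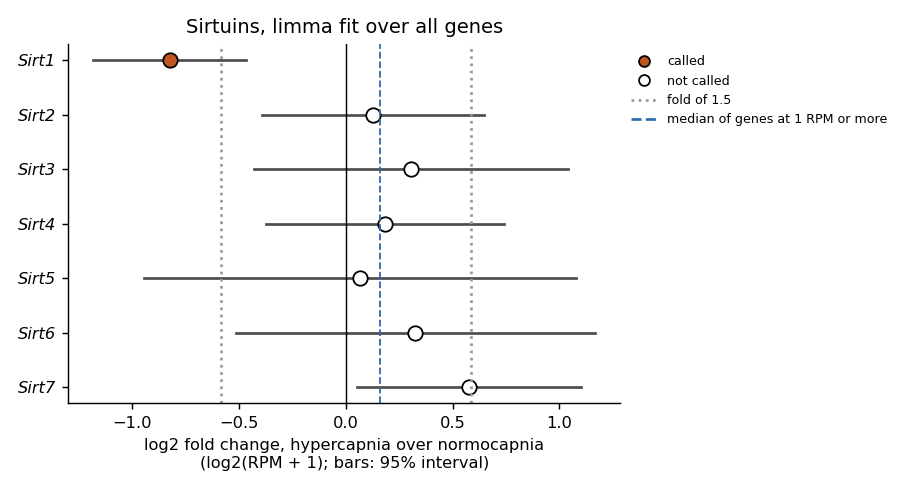
Log2 fold change of each sirtuin, hypercapnia over normocapnia on log2(RPM + 1), with 95% limma intervals, the 1.5-fold thresholds (dotted) and the median over genes averaging at least 1 RPM (dashed, 0.16). Sirt1 is the filled point at -0.83, Sirt7 sits at the upper threshold, and the intervals of the other 5 include 0.

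In direction, 6 of 7 sirtuins had a log2 difference above 0 and 1 below, with a median of 0.18 beside 0.02 over all genes. Genes averaging at least 1 RPM had themselves a median of 0.16, which became 0.04 under median-of-ratios scaling and -0.01 after quantile normalization, and differences are to be read against this shift. Sirt2 turned to -0.02 under the former, and Sirt3 and Sirt6 turned to -0.09 and -0.03 after the latter. Sirt1 stayed below 0 under both, at -0.96 (SE 0.31) and -1.07 (SE 0.45), with a larger SE than the 0.14 of the main fit. Its limma interval was -1.74 to -0.18 under the former, and -2.19 to 0.05, which includes 0, after the latter. Sirt7 stayed above 0, at 0.44 and 0.51, with limma intervals that both include 0 (-0.18 to 1.05 and -0.02 to 1.03). The spread was also unequal. For 6 of 7 sirtuins the highest over the lowest RPM was larger in normocapnia than in hypercapnia, the exception being Sirt4, and for 6 of 7 NC3 was the lowest normocapnia library, the exception being Sirt1.

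A ratio of 2 genes within a library does not depend on that library's scaling, apart from the pseudocount. Each sirtuin was therefore set against Sirt1, a comparison chosen after the values were seen. The log2 ratio of Sirt7 to Sirt1, both as RPM + 1, was 1.69, 1.79 and 0.93 under normocapnia, against 2.73, 3.09, 2.75 and 2.92 under hypercapnia. All hypercapnia libraries lay above all normocapnia libraries, which was fixed in advance by Sirt1 being lower and Sirt7 higher in each of them. The exact permutation p of 0.0286, the smallest possible, therefore tests nothing new. The difference was 1.40, with 1.13 to 1.56 when each library was left out. Sirt2 over Sirt1 differed by 0.95 and Sirt6 over Sirt1 by 1.15, again with groups apart and exact permutation p = 0.0286. Sirt4 over Sirt1, which leans on few reads, differed by 1.01 (exact permutation p = 0.0286), Sirt3 over Sirt1 by 1.13 (0.0571) and Sirt5 over Sirt1 by 0.89 with overlapping groups (0.143). With each library left out, the difference ran from 0.71 (without NC3) to 1.496 (without NC1) for Sirt6 over Sirt1, from 0.40 to 1.46 for Sirt5 over Sirt1 without the same libraries, from 0.65 to 1.31 for Sirt2, 0.76 to 1.36 for Sirt3 and 0.80 to 1.297 for Sirt4. With a pseudocount of 5 RPM the difference was smaller in all 6 ratios, at 0.73, 0.74, 0.65, 0.59, 0.81 and 1.14 for Sirt2 to Sirt7, and with 0.1 RPM it was 1.03, 1.34, 1.43, 1.43, 1.28 and 1.49. These 6 ratios share Sirt1 and are not independent of each other or of its own difference. Their p-values are not adjusted and are no test of the other 6 sirtuins.

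**Figure D3:**
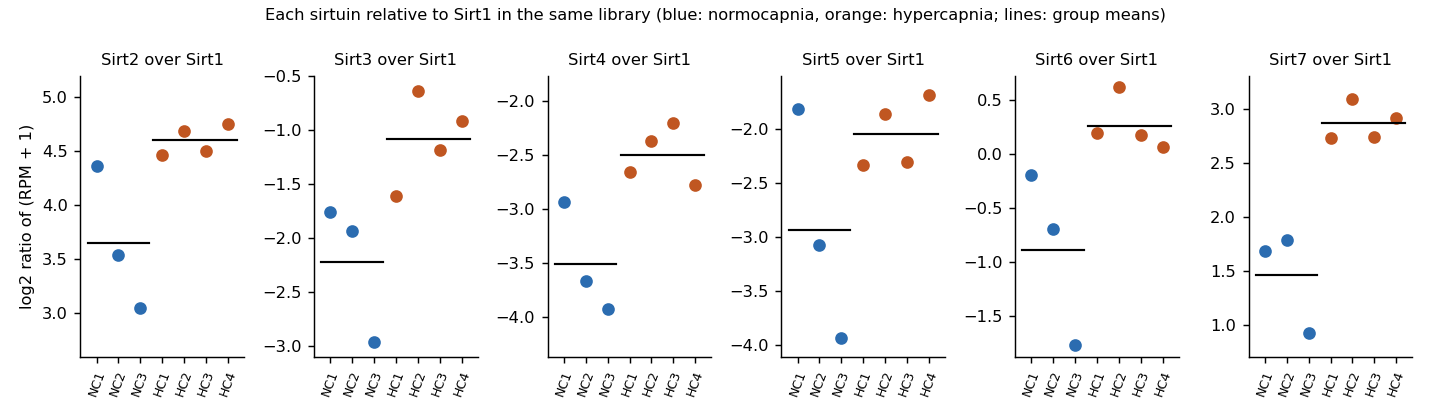
Log2 ratio of each of 6 sirtuins to Sirt1 in the same library, from RPM + 1, for normocapnia (blue) and hypercapnia (orange), with group means as lines; every panel spans the same height. The hypercapnia libraries lie above the normocapnia libraries in each panel except that of Sirt5, where NC1 falls among them.

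The genes whose course over the 7 libraries was most like that of Sirt1, by Pearson correlation of log2(RPM + 1) among 8229 genes averaging at least 10 RPM, were Ankrd16 (0.994), Pum2 (0.980) and Cxcl13 (0.976). The measure includes the group difference and is given as a description. Ankrd16 was at 18.5, 22.2 and 24.6 RPM in normocapnia, against 13.7, 11.1, 11.9 and 10.8 RPM in hypercapnia. Pum2, an RNA-binding repressor of translation, was at 119.9, 145 and 161 RPM and at 105, 90.4, 101 and 93.1 RPM. The chemokine Cxcl13 was at 5.58, 28.0 and 57.8 RPM and at 3.17, 1.41, 1.56 and 0.203 RPM. Cxcl13 reached the mean of 10 RPM through its normocapnia values.

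Lists of genes that act with or on sirtuins were written from general knowledge and hold 120 different genes, of which 113 were in the table (Csnk2a1, Fbl, Got2, Hdac1, Map1lc3b, Slc25a5 and Smarca5 were not analysed here). Limma called 7 of the 113 higher and 3 lower, or 8.85%, beside 2.57% of all genes and 4.75% of those averaging at least 1 RPM. None passed adjustment over all genes (12 at an unadjusted p under 0.05 in limma, 14 in edgeR and 17 in DESeq2, with 0 adjusted in each).

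Among 17 regulators and partners of sirtuins, 6 had a log2 difference above 0 and 11 below (median -0.25). Over all genes the median was 0.02, and over genes averaging at least 1 RPM it was 0.16. The medians of the lists below are to be read beside the same values. Limma called Dyrk1a alone (5.88% of the list, beside 2.57% of all genes and 4.75% of those averaging at least 1 RPM). Limma called 4 of the 17 without NC1, 2 without NC3 and 3 under either other scaling, and DESeq2 called 4. Over all genes, 1990 were called without NC1 and 616 without NC3, against 615 in the main fit. Median-of-ratios scaling called 610 genes, quantile normalization called 693, and DESeq2 called 6.25% of genes tested. With 17 members, these counts are too small to be read against such shares. Dyrk1a, a kinase that phosphorylates SIRT1, was at 120.1 ± 21.8 RPM (SD, n = 3) in normocapnia and at 72.5 ± 9.76 RPM (SD, n = 4) in hypercapnia. Its groups did not overlap (log2 difference -0.71, SE 0.17, limma adjusted p = 0.777), and it was called under all 19 alternatives.

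Of 44 substrates in nucleus and cytosol, 28 were above 0 and 16 below (median 0.10), with 3 called higher and 2 lower by limma. This is 11.4%, beside 2.57% of all genes and 4.75% of those averaging at least 1 RPM. In either direction 10 were called without NC1, 3 without HC2 or HC4 and 2 without HC1 or HC3. Over all genes, these fits called 1990, 376, 477, 385 and 572 in that order, against 615 in the main fit. Nr1h3, which encodes the sterol-sensing receptor LXRα, was at 8.56, 6.41 and 9.16 RPM in normocapnia, against 21.2, 26.5, 14.2 and 19.5 RPM in hypercapnia. Crtc2, a coactivator of CREB, was at 102, 102 and 142 RPM against 54.3, 58.2, 78.0 and 70.1 RPM. Both had groups apart, with log2 differences of 1.22 (SE 0.23) and -0.81 (SE 0.18), and each lost its call under 1 of 19 alternatives, Nr1h3 after quantile normalization (0.99) and Crtc2 without NC1 and NC3 together (-0.65). Per2, a repressor of the circadian clock, was lower with groups apart (log2 difference -1.02, SE 0.36), NC2 standing high at 25.1 RPM. Hif1a, the hypoxia-inducible factor, and Parp1, an enzyme that spends NAD at DNA breaks, were higher (1.01 and 0.77) with overlapping groups. Without NC2 the Per2 difference was -0.58 and not called, and without NC3 that of Parp1 was 0.51 and not called. Per2, Hif1a and Parp1 were called under 11, 11 and 13 of 19 alternatives. Of the autophagy proteins that SIRT1 deacetylates, singled out after their values were seen, Atg5 had a log2 difference of 0.03 (SE 0.16) and Atg7 one of 0.60 (SE 0.28), and neither was called.

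Of 25 genes listed for the mitochondrial sirtuins, 16 were above 0 and 7 below (median 0.14; Otc and Cps1 had no read in any library), with 2 called higher and 0 lower by limma. These 2 are 8% of the list, beside 2.57% of all genes and 4.75% of those averaging at least 1 RPM. The count in either direction was 8 without NC1, 1 without NC3 and 5 in edgeR and DESeq2. Over all genes, 1990 were called without NC1 and 616 without NC3, against 615 in the main fit. Of genes tested, edgeR called 6.03% with a filter and 4.38% without, and DESeq2 called 6.25%. Acss1, the acetyl-CoA synthetase that SIRT3 activates by deacetylation, was at 9.68, 7.23 and 5.99 RPM in normocapnia, against 22.4, 28.5, 13.8 and 14.9 RPM in hypercapnia. Ide, a protease that degrades insulin and a binding partner of SIRT4 rather than an established substrate, was at 150.5, 110.2 and 92.7 RPM against 194, 189, 194 and 197 RPM. Groups were apart for both (log2 differences 1.24, SE 0.30, and 0.74, SE 0.16). Acss1 was not called after quantile normalization (0.97) or without NC1 and NC3 together (1.29), and Ide was not called without NC3 (0.58).

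Among 18 genes of NAD synthesis and consumption, 12 were above 0 and 6 below (median 0.33), and 3 were called (16.7%, beside 2.57% of all genes and 4.75% of those averaging at least 1 RPM), all higher (1.43% of all genes): Nampt, the rate-limiting enzyme of NAD salvage (log2 difference 0.79), Nadk, which phosphorylates NAD to NADP (0.59), and Parp1. Nampt was called under 10 and Nadk under 11 of 19 alternatives. Neither was called in edgeR or DESeq2, where Nampt was at 0.57 to 0.63 and Nadk at 0.44 to 0.50. Of the 18, 1 was called under median-of-ratios scaling, in edgeR with a filter, with the replicate block and without NC3 or HC3. Without HC2 the count was 0, although the log2 differences stayed close, at 0.76 for Nampt, 0.56 for Nadk and 0.70 for Parp1. Without NC1 and NC3 together, Nampt was at 0.34. Of the 10 zinc-dependent histone deacetylases, a separate enzyme class that needs no NAD, 6 were above 0 and 4 below (median 0.14), and limma called 0, with 0 at an unadjusted p under 0.05, 1 in edgeR with a filter, 0 without and 1 in DESeq2. Hdac10 had the smallest p, with 13.1 ± 5.51 RPM (SD, n = 3) in normocapnia and 18.6 ± 1.43 RPM (SD, n = 4) in hypercapnia, and overlapping groups. Its log2 difference was 0.54, and without NC2 it was 0.84 and called.

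**Figure D4:**
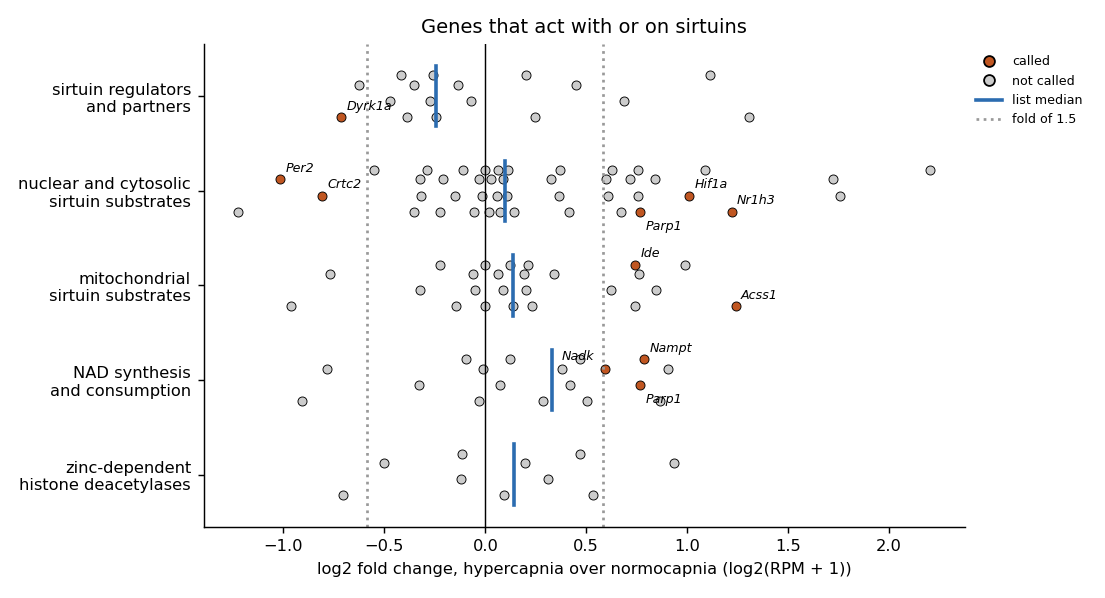
Log2 fold change (hypercapnia over normocapnia) of the genes of 5 related lists, 1 point per gene, called genes filled and named, with each list's median (blue bar) and the 1.5-fold thresholds (dotted). Called genes lie on both sides for the nuclear and cytosolic substrates and on the higher side for the mitochondrial and NAD lists.

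**Figure D5:**
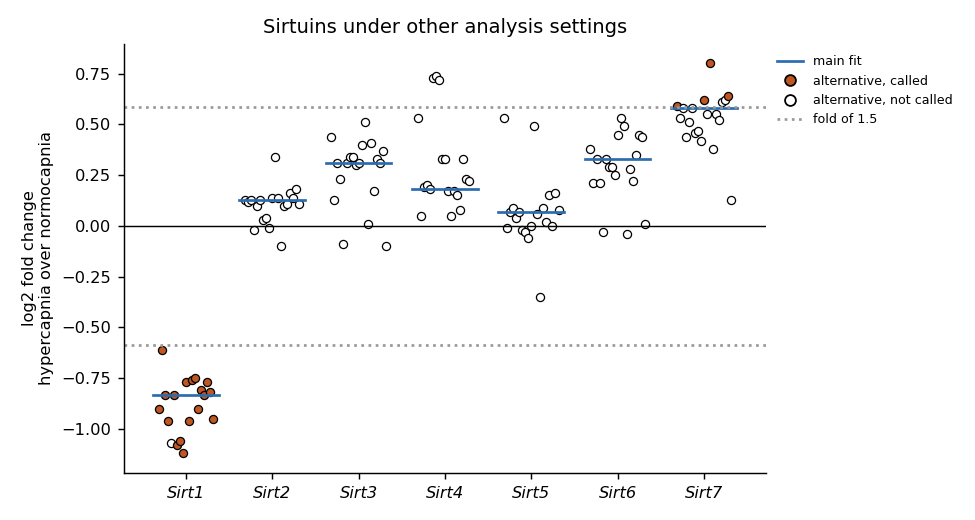
Log2 fold change of each sirtuin under the main analysis (blue line) and each alternative (points; filled where called). Sirt1 stays between -1.12 and -0.61 and is called under 18 of 19 alternatives, while Sirt7 runs from 0.13 to 0.80 and is called under 4 of 19.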

How the data were processed

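Ion AmpliSeq Transcriptome Mouse libraries of 7 samples were read by the authors on an Ion S5 instrument and deposited as RPM, reads relative to all reads assigned to the panel. For the aligner and the build, the sources used here give nothing, and the submitters' processing notes name the Transcriptome Analysis Console. Groups came from the sample titles. The RPM steps gave back whole reads (all values, tolerance 0.05 read), and 2443 genes were at 0 in all libraries.

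Differences were tested with limma 3.58.1 (R 4.3.3) on log2(RPM + 1), with all 23930 genes kept, at the study's thresholds (unadjusted p under 0.05, fold above 1.5), with exact permutation tests, two-sided, for single genes. A fold change on this scale understates that of low genes. Alternatives were pseudocounts of 0.1 and 5 RPM, a filter at a mean of 1 RPM, 2 other scalings, a prior following the mean, edgeR 4.0.16 and DESeq2 1.42.0 on whole reads, a replicate block and leaving out each library. Xist as a covariate and leaving out both NC1 and NC3 were added after seeing the data.

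The members and lists were chosen with earlier results of these data known. Named are all sirtuins, called genes of each list (up to 5, or the gene with the smallest p where none was called) and the 3 genes most like a called sirtuin. No pair of libraries was alike within counting noise. Poisson intervals of single libraries and the floor of 3 reads cover counting error only, and the ratios to Sirt1 were chosen after the values were seen. The fits were tested on simulated data.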

Additional observations from a re-analysis of the deposited data

How the results depend on the processing

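Sirt1 kept its direction under all 19 alternatives and its call under 18, the exception being quantile normalization (-1.07). Leaving out each library gave -0.96 to -0.75 for Sirt1, with each call kept. Sirt7 was called with a pseudocount of 0.1 RPM (0.59), with the replicate block (0.62) and with Xist as a covariate (0.64, added after seeing the data). It ranged from 0.38 to 0.80 when each library was left out, being called without NC2 (0.80). The unadjusted p of Sirt7 was under 0.05 in only 6 of 19 alternatives. These did not include the filter at 1 RPM, either other scaling, edgeR or DESeq2. The sirtuins called were accordingly 2 with a pseudocount of 0.1 RPM, with the replicate block and with Xist as a covariate, 0 with quantile normalization, and 1 to 2 when each library was left out. Directions of uncalled sirtuins turned as follows. Sirt2 was -0.02 under median-of-ratios, -0.01 by DESeq2 and -0.10 when NC3 was left out. Sirt3 was -0.09 with quantile normalization and -0.10 without both NC1 and NC3. Sirt5 was -0.01 with a pseudocount of 5 RPM, -0.02 and -0.03 in edgeR with and without a filter, -0.06 in DESeq2 and -0.35 without NC3. Sirt6 was -0.03 with quantile normalization and -0.04 without NC3. Of the 11 genes of the lists that were refitted, which leaves out Atg5 and Atg7, Hdac10 reversed (-0.07 without both NC1 and NC3) and the other 10 did not. Leave-one-out values were -0.10 to 0.34 for Sirt2, 0.01 to 0.51 for Sirt3, 0.05 to 0.33 for Sirt4, -0.35 to 0.49 for Sirt5 and -0.04 to 0.53 for Sirt6. Sirt4 has no value under the filter at 1 RPM, since its mean is lower.

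All genes called numbered 615, and 1049 in edgeR without a filter, 1304 in DESeq2, 1210 with Xist as a covariate, 1638 without both NC1 and NC3 and 376 (without HC2) to 1990 (without NC1) when each library was left out. Of the related lists 10 genes were called, 17 in DESeq2, 29 without both NC1 and NC3 and 6 to 25 when each library was left out. Calls over all genes split into 343 higher and 272 lower, whereas DESeq2 gave 519 higher and 785 lower, unfiltered edgeR 407 and 642, quantile normalization 336 and 357, Xist as a covariate 746 and 464, and leaving out NC1, NC2 or NC3 1495 and 495, 671 and 534, or 235 and 381. Same-numbered libraries did not deviate together in every pair (correlations of -0.349, 0.503 and -0.044 over 12504 genes), so the numbers are not taken as pairs. The causes of these shifts were not tested. Sirt4 ran from 0.05 (pseudocount of 5 RPM) to 0.74 (edgeR without a filter), uncalled throughout. Sirt5 had 1 read in NC3 and 19 in HC4.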
